A study of Mus musculus with 8 samples.

Results

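Fos, Fosb, Junb, Egr1, Egr2, Egr3, Atf3, Ier2, Nr4a1 and Apold1 are 10 of the 16686 genes counted in the tibialis anterior muscle of 8 old mice, and all 10 passed the filter on low counts. They were chosen from measured values: Fos, Egr1 and Apold1 had been seen to be high together in the same 3 mice, and the other early response genes were added to them by name. The levels in each mouse are therefore a description, and nothing is supported with the pattern that chose them. The genotype of the mice was not used in that choice. The 3 mice were not split evenly between the genotypes, however, so the genotype contrast of these genes is not independent of it.

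The study compared male FVBN wild-type mice (WT Old, 4 mice) with male mice lacking Mybpc2 (C2-/-Old, 4 mice), all listed at 22 months of age, although another entry of the labels names a younger age. Mybpc2 encodes fast myosin-binding protein C, a thick filament protein of fast muscle fibres, and exons 2 to 22 of it were replaced with a Neo cassette flanked by LoxP sites, so that every cell of the animal carries the deletion. No treatment is listed for either group, and according to the study's methods mice were anaesthetized with isoflurane and killed by cervical dislocation before the muscles were taken and frozen. The time of day and the time from death to freezing are not given in the sources used here. One library was made from whole muscle of each mouse, so fewer cells of a type and less RNA per cell cannot be told apart in any value below.

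Immediate early genes are transcribed within minutes of a stimulus without new protein synthesis, from promoters that are already occupied by factors such as SRF and CREB. Their transcripts are short-lived and most of them encode transcription factors that in turn switch on later genes. In skeletal muscle they are known to respond to contraction, stretch, injury, ischaemia and tissue handling. Apold1 encodes an apolipoprotein L domain protein of endothelial cells and is itself known as an early response gene of the vasculature.

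Each library held between 25425993 and 29747692 counts, with TMM scaling factors of 0.929 to 1.035. Mybpc2 was at 4964, 5450, 5101 and 7392 CPM (counts scaled to a common library size) in WT Old replicates 1 to 4 and at 4.35, 4.02, 38.4 and 3.85 CPM in C2-/-Old replicates 1 to 4. The log2 fold change was -8.82 ± 0.94 (SE; edgeR quasi-likelihood test, adjusted p = 0.0075). The library of each mouse therefore followed its label for the deleted gene. Skeletal muscle markers such as Acta1, Ckm and Myh4 (9 genes) summed to between 157100 and 208600 CPM in WT Old and between 163300 and 186000 CPM in C2-/-Old.

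The promoter windows were searched for short motifs of early response factors. RefSeq promoter windows on GRCm38.p6 were found for 7 of the 10 members, and the stretches below are shown because each holds TGACG, the core of the cAMP response element (CRE), within the 250 bases before the RefSeq start used for the window. Other annotated starts lie further upstream for Fosb, Egr2, Nr4a1 and Apold1, so those 4 stretches fall inside the gene intervals given with the values, and Egr2 had several windows, of which 1 is shown. All 30 Apold1 bases and 7 of the Atf3 bases are annotated by GENCODE as UTR. That core is in capitals, on either strand, as is the CArG box of Egr2, to which SRF binds. The Fosb, Atf3 and Apold1 stretches are limited to 30 bases around the site.
Fos (chr12:85473740-85473889, plus strand): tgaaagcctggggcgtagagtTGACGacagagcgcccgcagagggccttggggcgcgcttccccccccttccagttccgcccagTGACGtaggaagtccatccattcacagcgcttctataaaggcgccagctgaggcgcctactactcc
Fosb (chr7:19310088-19310117, minus strand): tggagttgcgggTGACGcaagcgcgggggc
Junb (chr8:84978749-84978898, minus strand): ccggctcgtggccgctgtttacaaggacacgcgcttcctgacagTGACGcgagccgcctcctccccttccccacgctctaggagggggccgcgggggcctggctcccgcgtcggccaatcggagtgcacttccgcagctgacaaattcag
Egr2 (chr10:67537719-67537868, plus strand): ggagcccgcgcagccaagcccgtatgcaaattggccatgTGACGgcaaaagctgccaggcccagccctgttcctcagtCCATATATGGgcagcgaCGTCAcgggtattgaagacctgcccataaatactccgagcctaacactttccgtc
Nr4a1 (chr15:101266696-101266845, plus strand): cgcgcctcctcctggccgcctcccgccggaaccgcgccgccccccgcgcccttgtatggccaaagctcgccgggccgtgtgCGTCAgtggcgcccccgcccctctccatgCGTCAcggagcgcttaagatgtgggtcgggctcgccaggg
Atf3 (chr1:191183334-191183363, minus strand): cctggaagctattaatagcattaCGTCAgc
Apold1 (chr6:134981937-134981966, plus strand): ctttcccagagcCGTCAttggctcctggga
TGACG on either strand was present in the windows of 7 of 7 members, against 19.8% of the 27025 genes with a window. The complete element TGACGTCA, which contains that core, was in 0 of the 7 and in 1.77% of all genes. A CArG box was found in Egr2, 72 to 63 bases before its start, and in 1.62% of all genes. TATAAA on the forward strand lay 33 bases before the start of Fos and 32 bases before that of Apold1, and in 8.94% of all genes. The EGR motif GCGNGGGCG on either strand was in the windows of Fosb and Nr4a1 and in 5.33% of all genes, while the AP-1 motif TGANTCA was in 0 of 7 members and 7.82% of all genes. These are matches of letters within a short window and do not show that a factor was bound there.

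The AP-1 subunits chosen as members were among the most variable transcripts of the muscle. Other AP-1 subunits varied less, with ranges between the highest and lowest mouse of 3.38-fold for Jun, 2.97-fold for Jund and 2.54-fold for Fosl2. Fos (gene 14281, chr12:85473901-85477269), the partner of Jun proteins in AP-1, was at 4.47, 70.9, 7.81 and 245.0 CPM in WT Old replicates 1 to 4. In C2-/-Old replicates 1 to 4 it was at 1.86, 123.4, 2.24 and 0.901 CPM. WT Old replicates 2 and 4 and C2-/-Old replicate 2 were high and the other 5 mice low, with a 272-fold range between the highest and lowest mouse and 9.08-fold between the third and the fourth mouse in order.

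Fosb (gene 14282, chr7:19302696-19310226), which can replace Fos in the dimer, was at 1.16, 50.6, 0.56 and 130.8 CPM in WT Old and at 1.02, 61.3, 0.142 and 0.485 CPM in C2-/-Old. The same 3 mice were high, with 3613 counts in WT Old replicate 4 and 4 counts in C2-/-Old replicate 3. The 922-fold range between those mice rests on the 4 counts, whose exact 95% Poisson interval gives 360.0-fold to 3383-fold for counting error alone. Junb (gene 16477, chr8:84976909-84978748), a Jun family subunit, was at 22.8, 138.9, 19.2 and 208.6 CPM in WT Old and at 17.2, 156.2, 20.9 and 16.1 CPM in C2-/-Old. Its order of the 3 high mice was that of Fos and Fosb, over a 12.97-fold range. The listed intervals of Junb and Prdx2 overlap, as do those of Ier2 and Nacc1, and Atf3 lies within an implausibly long interval listed for Rcor3. The sources do not state whether strand was used in counting.

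The EGR zinc finger factors followed the same order of mice. Egr1 (gene 13653, chr18:34861207-34864956), the most abundant of them, was at 41.5, 217.2, 13.1 and 532.1 CPM in WT Old replicates 1 to 4 and at 12.2, 347.4, 18.1 and 8.08 CPM in C2-/-Old replicates 1 to 4. Its range was 65.9-fold. Egr2 (gene 13654, RefSeq interval chr10:67534469-67542188), known for its part in myelination of Schwann cells, was at 1.35, 2.12, 0.486 and 6.44 CPM in WT Old and at 0.946, 4.24, 0.71 and 0.416 CPM in C2-/-Old. It had the weakest gap of the 3, with 1.57-fold between the third and the fourth mouse, and it overlaps an annotated long non-coding RNA. The interval deposited for Egr2 is implausibly long, at 67238518 bases, so the RefSeq interval is given instead. Egr3 (gene 13655, chr14:70077445-70082613), which is required for muscle spindle development, was at 1.27, 5.18, 0.859 and 15.1 CPM in WT Old and at 0.416, 9.30, 0.248 and 0.52 CPM in C2-/-Old. Egr3 varied 60.6-fold, with a lowest value of 0.248 CPM where 3 counts are worth 0.104 to 0.116 CPM.

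The other early transcripts differed in how far they kept to that order. Atf3 (gene 11910, chr1:191170296-191183333), a stress-induced member of the ATF/CREB family, was at 2.58, 18.1, 1.72 and 38.9 CPM in WT Old and at 2.01, 13.98, 3.44 and 2.25 CPM in C2-/-Old. WT Old replicate 2 was above C2-/-Old replicate 2 here, the reverse of the order seen for Fos. Ier2 (gene 15936, chr8:84661331-84662852), a nuclear protein of the early response, was at 10.6, 46.9, 9.04 and 72.0 CPM in WT Old and at 8.44, 60.2, 8.34 and 7.07 CPM in C2-/-Old, a 10.2-fold range. Nr4a1 (gene 15370, chr15:101252918-101274795), an orphan nuclear receptor that controls glucose and lipid metabolism genes in muscle, was at 286.4, 361.5, 483.1 and 653.8 CPM in WT Old and at 244.7, 507.0, 262.5 and 290.7 CPM in C2-/-Old. Nr4a1 spanned only a 2.67-fold range among the 8 mice, and WT Old replicate 3 took the third place in its order ahead of WT Old replicate 2.

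Apold1 (gene 381823, chr6:134981620-134989412) was at 2.35, 15.9, 4.33 and 25.9 CPM in WT Old replicates 1 to 4 and at 0.871, 16.8, 1.45 and 1.32 CPM in C2-/-Old replicates 1 to 4. The 3 high mice were those of Fos, and the range was 29.8-fold. Over log2 CPM in the 8 mice, Fos had the highest Pearson correlation with Apold1 of all 12542 genes tested (r = 0.981), while Egr3 stood at place 5 (0.958) and Egr2 at place 129 (0.832). This is a description of 8 points that are dominated by the 3 high mice and that chose the genes. Endothelial markers such as Pecam1, Cdh5 and Kdr (12 genes, none of them at 3 counts or fewer in every mouse) summed to between 397.4 and 525.5 CPM in WT Old and between 391.7 and 492.0 CPM in C2-/-Old. That sum was 420.4 and 397.4 CPM in WT Old replicates 2 and 4, below the 525.5 and 502.2 CPM of replicates 1 and 3. In C2-/-Old replicate 2, the other high mouse for Apold1, it was 492.0 CPM, the highest of its group. Of the 12 markers, 0 had the 3 high mice on top. Apold1 overlaps an annotated long non-coding RNA.

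**Figure D1:**
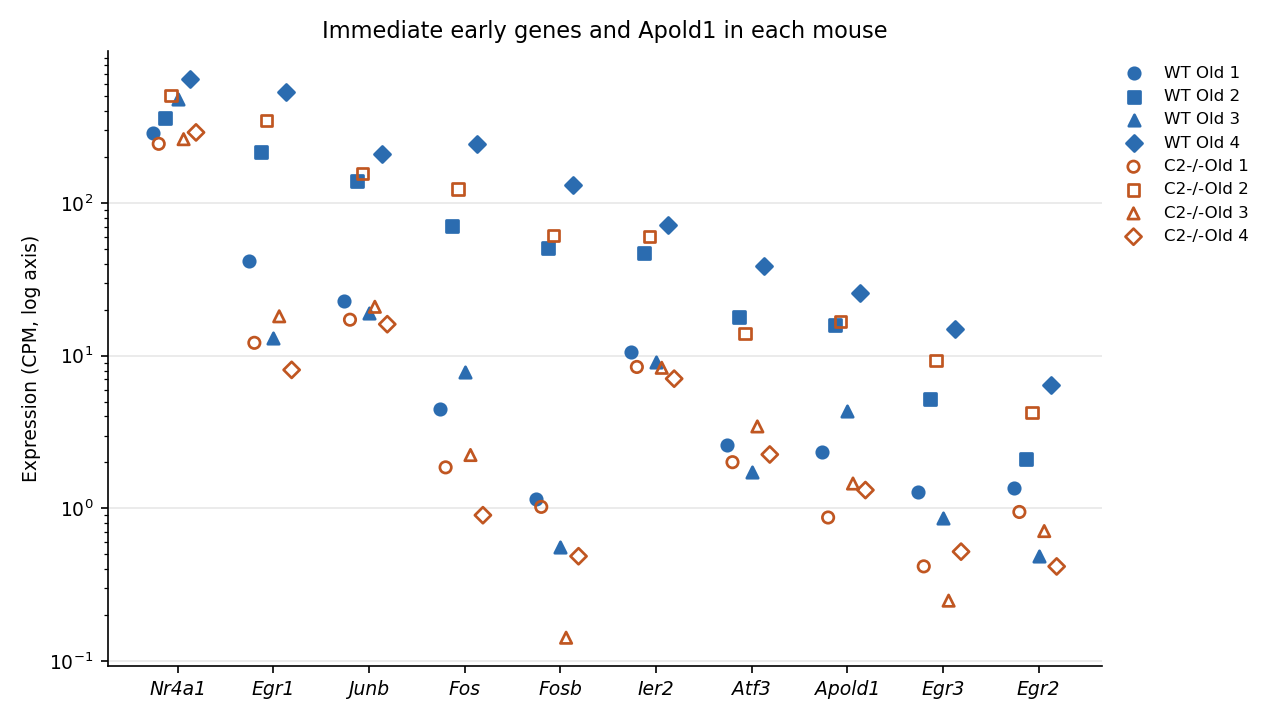
Expression of the 10 genes (CPM, log axis) in each mouse, with filled blue symbols for WT Old, open orange symbols for C2-/-Old and the symbol shape for the replicate number. WT Old replicate 4 was the highest mouse for all 10 genes, and for 9 of them WT Old replicates 2 and 4 and C2-/-Old replicate 2 were the 3 highest, Nr4a1 being the exception.

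WT Old replicate 4 was the highest mouse for 10 of 10 members and C2-/-Old replicate 2 stood next for 9 of them. The 3 highest mice were WT Old replicates 2 and 4 and C2-/-Old replicate 2 for 9 members, a pattern that 3.36% of the 12542 tested genes had. Since the members were picked for this pattern, the share is printed for scale and nothing is read from it. Those 3 libraries came from both genotypes. Their totals were 28818469, 29747684 and 25990367 counts, the 2 deepest WT Old libraries and one of the 2 shallowest C2-/-Old libraries, and their TMM factors were 0.952, 0.929 and 1.035. The part of depth or scaling in the pattern was not tested. Blood markers such as Hba-a1 and Alas2 (7 genes) summed to 6323, 780.2 and 909.0 CPM in those 3 mice and to between 483.9 and 5886 CPM in the other 5, although S100a9 alone had the same 3 mice on top. In the genotype contrast the median log2 fold change of the 5 blood markers tested was -0.92, with 4 of 5 lower in C2-/-Old and 2 of 5 past an unadjusted p of 0.05 in that direction, none of them past an adjusted one. Their part in the members' values was not tested. Macrophage markers (9 genes) summed to between 42.0 and 96.1 CPM in WT Old and between 65.5 and 107.6 CPM in C2-/-Old, satellite cell markers (5 genes) to between 24.2 and 32.1 CPM and between 27.0 and 32.2 CPM. Neither of these sums had those 3 mice on top.

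Most of the members were among the transcripts with the largest spread between mice of a genotype. The SD of log2 CPM within genotypes ranked Fosb at 1, Fos at 2, Egr1 at 6, Egr3 at 14, Atf3 at 34, Apold1 at 38, Junb at 49, Ier2 at 80 and Egr2 at 94 of the 12542 tested genes. Nr4a1 ranked at 2040. The highest mouse exceeded the lowest by 10-fold or more for 9 of 10 members and for 2.66% of tested genes, and the median gene had a ratio of 1.73. The members were chosen on this variation, so the ranks describe them. Genes outside the 10 varied as widely: all 5 blood markers tested ranked within the top 100, with a median ratio of the highest to the lowest mouse of 20.6, as did Btg2 (65), Zfp36 (67) and Cdkn1a (97).

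**Figure D2:**
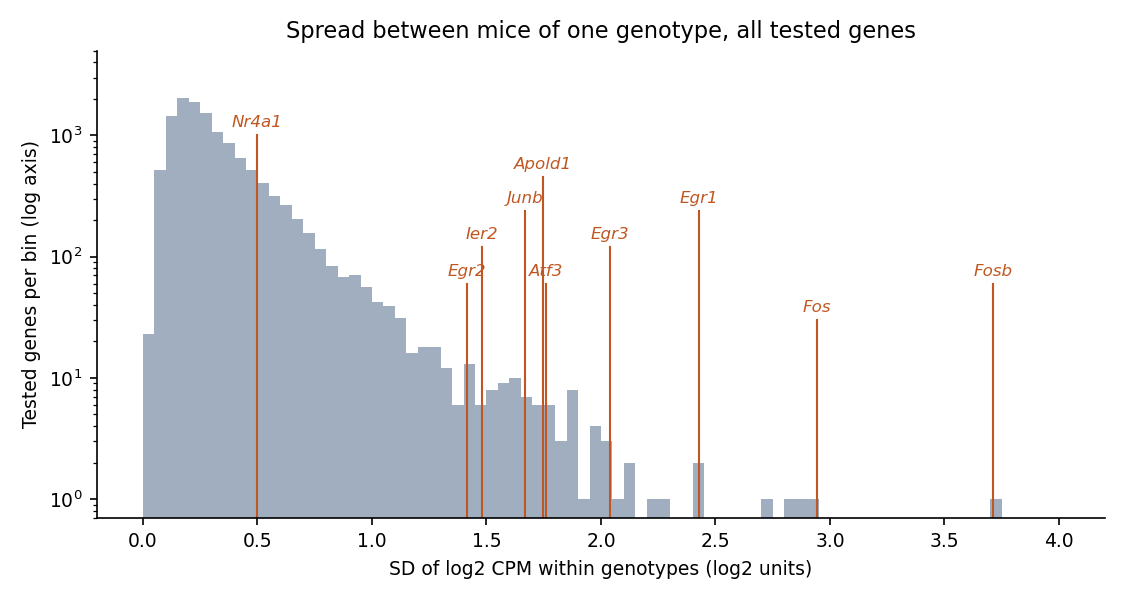
Histogram of the SD of log2 CPM within genotypes (x axis, log2 units) for the 12542 tested genes (y axis, genes per bin, log axis), with a vertical line at each of the 10 genes. Fosb and Fos have the largest spread of all, 9 of the 10 genes are among the top 100, and Nr4a1 lies within the bulk at rank 2040.

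Levels between genes were compared on the deposited TPM, which accounts for gene length. Nr4a1 was the most abundant at 272.7 ± 108.0 TPM (SD, n = 8 mice) and was above Egr1 in 8 of 8 mice. Egr1 at 88.4 ± 118.6 TPM and Junb at 75.7 ± 79.8 TPM could not be ordered, since Egr1 was above Junb in 3 of 8 mice, WT Old replicates 1 and 4 and C2-/-Old replicate 2. Junb was above Fos (50.4 ± 77.6 TPM) in 7 of 8 mice, and Fos above Ier2 (34.4 ± 33.7 TPM) in the 3 high mice. Ier2 exceeded Fosb (15.0 ± 23.1 TPM) in 8 of 8 mice and Fosb exceeded Atf3 (9.62 ± 12.0 TPM) in the 3 high mice. Atf3 was above Apold1 (4.78 ± 5.26 TPM) in 7 mice and Apold1 above Egr3 (1.94 ± 2.56 TPM) in 8. Egr3 and Egr2 (1.42 ± 1.46 TPM) were at levels closer together than their spread, with Egr3 higher in 5 of 8 mice.

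The proportions of the members changed with their levels. The TPM of Egr1 was 0.504, 0.695 and 0.58 times that of Nr4a1 in WT Old replicates 2 and 4 and C2-/-Old replicate 2, and 0.0235 to 0.123 times in the other 5 mice. Egr1 was 88.4, 73.3 and 72.3 times Egr2 in those 3 mice, and 10.8 to 25.9 times in the others. Within the FOS pair, the ratio of Fos to Fosb was 2.53, 3.38 and 3.64 in the 3 mice, and from 3.12 to 25.3 in the others, so those ranges overlapped. In those other 5 mice Egr2 had only 12 to 35 counts and Fosb 4 to 30. Summed over the 10 genes, the members took 0.0882%, 0.179% and 0.134% of the counts of those 3 libraries and 0.0297% to 0.0552% of the others. The choice of members rested on high values in those 3 mice, Egr1 included. Higher Egr1 ratios and sums there can therefore follow from the choice alone, and they are a description.

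No member was called between the genotypes, whose contrast asks what the loss of Mybpc2 does to old muscle. A gene was called at an adjusted p under 0.05 and a 1.5-fold change, and 4 of 12542 genes (0.0319%) were called by edgeR. With 0 members called, 0 also passed an unadjusted p of 0.05, which 663 genes (5.29%) did, and DESeq2 called 0 members as well. The study, which used limma/voom, names Apold1 as downregulated among the most dysregulated genes of old C2-/- muscle. Here limma-voom called 0 members too, and the reason for the difference was not tested. The ranges of the genotypes overlapped for all 10 members, while 424 genes (3.38%) had groups that did not overlap. The mean and the median over mice were lower in C2-/-Old for 10 of 10 members, and the fitted fold change was below 0 for 54.2% of tested genes. The median log2 fold change was -1.08 over the members and -0.02 over all genes tested. As the members move together over the same mice, 10 lower values are not 10 separate observations. The pattern that chose them had WT Old replicates 2 and 4 high but only replicate 2 of C2-/-Old. Lower means and medians in C2-/-Old can therefore follow from the choice alone.

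The group means of Fos were 82.0 ± 112.8 CPM for WT Old and 32.1 ± 60.9 CPM for C2-/-Old (SD, n = 4), giving a log2 fold change of -1.36 with a 95% interval from -4.79 to 2.08 (edgeR, adjusted p = 0.974). Egr1 averaged 201.0 ± 238.5 and 96.4 ± 167.4 CPM, with a log2 fold change of -1.06 and an interval from -3.94 to 1.82 (edgeR, adjusted p = 0.976). Apold1 averaged 12.1 ± 11.0 and 5.10 ± 7.78 CPM, with a log2 fold change of -1.25 and an interval from -3.42 to 0.92 (edgeR, adjusted p = 0.968). In each of these the SD of a group was about as large as its mean or larger. Nr4a1, with the narrowest interval, had a log2 fold change of -0.45 (-1.09 to 0.19), and Atf3, with the smallest unadjusted p of the members, one of -1.50 (-3.58 to 0.58). The other 5 were at -1.54 (Fosb), -1.10 (Egr3), -0.89 (Junb), -0.73 (Egr2) and -0.72 (Ier2), each with an interval that included 0. The intervals of the members therefore reached beyond a 1.5-fold change in the lower direction for all 10, and differences of that size were not detectable with these mice.

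The size of the difference, and for 4 members its direction, changed when 1 of 2 mice was left out. Without C2-/-Old replicate 2, the log2 fold changes were -5.62 for Fos, -6.38 for Fosb, -2.42 for Junb, -3.97 for Egr1, -3.80 for Egr3 and -3.31 for Apold1, and all 10 members had an unadjusted p under 0.05 but none an adjusted one. Without WT Old replicate 4, they turned to 0.23 for Fos, 0.11 for Egr1, 0.27 for Egr2 and 0.11 for Egr3, while the other 6 stayed below 0, at -0.13 for Fosb, -0.18 for Junb, -0.45 for Atf3, -0.06 for Ier2, -0.19 for Nr4a1 and -0.55 for Apold1. The 3 lower C2-/-Old mice were below WT Old replicates 2 and 4 for 10 of 10 members. For 9 members this order is the pattern of the choice itself, with WT Old replicates 2 and 4 and C2-/-Old replicate 2 highest. Both mice left out above belong to that pattern. The shifts and counts without them therefore describe the chosen genes, and nothing about the genotype is read from them. Leaving out any other mouse left 0 members past an unadjusted p of 0.05.

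**Figure D3:**
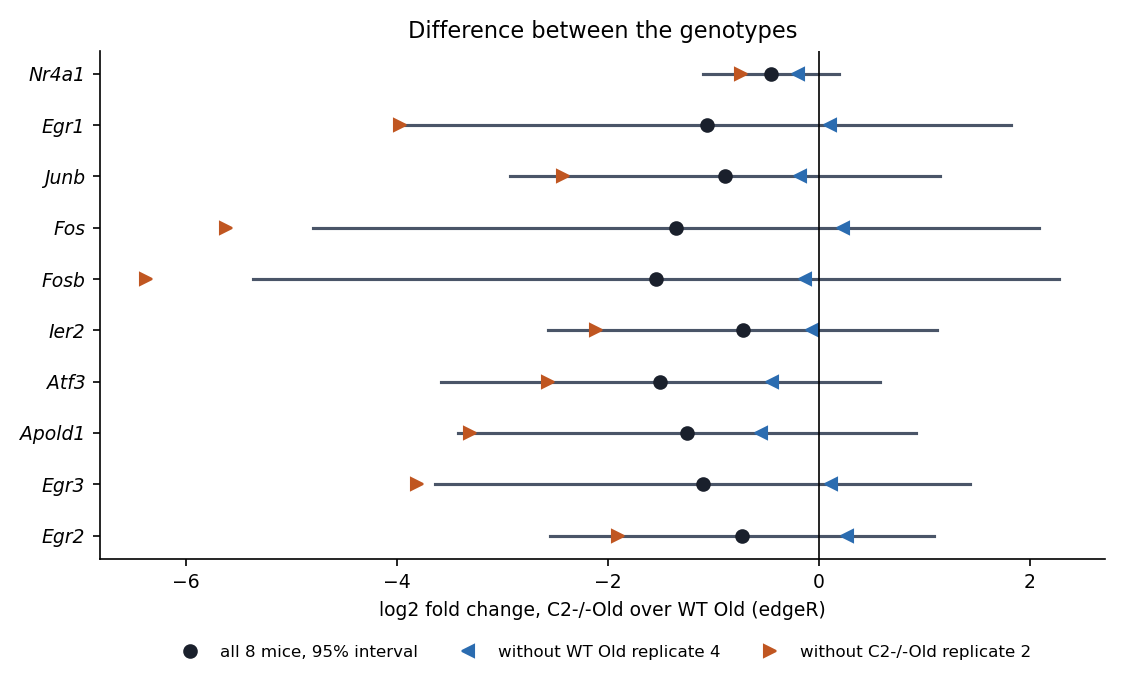
The log2 fold change of C2-/-Old over WT Old for each gene with all 8 mice (black points, with 95% intervals from edgeR), without WT Old replicate 4 (blue triangles) and without C2-/-Old replicate 2 (orange triangles). All 10 intervals cross 0, and leaving out the one mouse moves every value to the right while leaving out the other moves every value to the left.

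Other early response genes were taken from lists. Of 27 other immediate early transcription factors, 25 were tested (Fosl1 and Egr4 were not), and 15 of them had the same 3 highest mice, against the 3.36% of all genes. Jun, the main partner of Fos, was at 107.2, 225.1, 98.1 and 331.2 CPM in WT Old and at 126.0, 248.2, 126.6 and 112.4 CPM in C2-/-Old. Klf4, a zinc finger factor of endothelium, was at 21.2, 39.5, 28.2 and 51.0 CPM and at 13.5, 40.8, 16.0 and 22.2 CPM. Nr4a2, a relative of Nr4a1, ranged from 0.639 to 5.68 CPM with the same 3 mice on top, whereas the third relative Nr4a3 reached 22.5 and 41.4 CPM in WT Old replicates 2 and 4 and 7.51 CPM in C2-/-Old replicate 2, within the 6.78 to 10.5 CPM of the other C2-/-Old mice. In the genotype contrast 3 of the 25 had an unadjusted p under 0.05 in the lower direction and 0 in the higher, namely Klf2 (log2 fold change -0.88 ± 0.38 SE), Id1 (-0.91 ± 0.39) and Mafk (-0.73 ± 0.33). None passed adjustment (edgeR, adjusted p = 0.919 for Klf2), and without WT Old replicate 2 the log2 fold changes of Klf2, Id1 and Mafk were -0.63, -0.40 and -0.22, all with an unadjusted p above 0.05.

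Feedback regulators and other early response genes numbered 31, of which 30 were tested, Il6 being the exception, and 14 had the same 3 highest mice. Btg2, an antiproliferative factor, was at 16.2, 96.9, 14.4 and 119.6 CPM in WT Old and at 10.4, 96.3, 12.9 and 12.5 CPM in C2-/-Old, and of the genes outside the 10 it had the highest correlation with their mean (r = 0.985 over 8 mice). Zfp36, which marks AU-rich transcripts for decay, was at 43.8, 214.9, 39.5 and 273.2 CPM and at 20.1, 201.3, 47.5 and 16.5 CPM. Cdkn1a, a cell cycle inhibitor, stood at 404.7 CPM in WT Old replicate 2 and at 22.6 to 43.1 CPM in the other 7 mice, and its log2 fold change of -2.02 ± 0.84 (unadjusted p = 0.0369, adjusted p = 0.919, edgeR) was 0.01 without that mouse. Cdkn1a and Plk3 (-1.15 ± 0.51) were the 2 genes of the list with an unadjusted p under 0.05, both in the lower direction, and neither passed it without C2-/-Old replicate 1. Over both lists 47 of 55 tested genes had a lower fitted value in C2-/-Old, with list medians of -0.46 and -0.41. Of all tested genes 54.2% were lower, with a median of -0.02. The same 3 mice were highest for 29 of the 55, and most of those mice were WT Old. The 55 genes are therefore not separate observations, and their lists were chosen with earlier results of these data known. Nothing about the genotype is read from the count.

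The genes whose pattern over the 8 mice was most like the mean of the members also included some outside any list. Thbs1, an extracellular matrix glycoprotein (r = 0.947), ranged from 2.52 to 26.8 CPM. Eef1akmt1, a lysine methyltransferase (r = 0.974), moved over a much smaller range of 10.4 to 16.8 CPM, and Prkcq, the protein kinase C isoform abundant in muscle (r = 0.962), over 93.3 to 142.2 CPM. Others were Zfp36, Nr4a2, Gpcpd1, Jun and Pcbp3. Most like Apold1 alone were Klf4 (r = 0.969), Btg2 (0.963), Zfp874b (0.96), Zfp36 (0.953) and Errfi1 (0.949). The correlations are descriptions over 8 mice, 3 of which set them.

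Transcripts of the upstream machinery varied little between mice, with a median ratio of the highest to the lowest mouse of 1.37 over the list. That ratio was 1.73 over all tested genes, 3.77 over the other immediate early transcription factors and 5.26 over the feedback list. The 26.2 of the members is no fair comparison, since they were chosen on their variation. The lists were chosen with earlier results of these data known, so their ratios are a description too. None of the 23 regulators tested, such as Srf, Elk1 and Creb1, had the same 3 highest mice, and 0 passed an unadjusted p of 0.05 in the genotype contrast, with a median log2 fold change of -0.04. Srf lay between 171.8 and 246.4 CPM over the 8 mice. Mkl1, a coactivator of SRF now named Mrtfa, was at 14.7 CPM in WT Old replicate 2 and at 68.7 to 98.6 CPM in the other 7 mice. Of 8 heat shock genes 0 had those 3 mice on top, and Hspb1 was at 500.3 CPM in WT Old replicate 2 and at 127.3 to 205.0 CPM in the others. Of 13 clock genes 1, Cry2, did. Per1, which belongs to both the clock and the early response lists, was highest in WT Old replicate 3 at 210.6 CPM and lowest in C2-/-Old replicate 1 at 30.9 CPM.

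**Figure D4:**
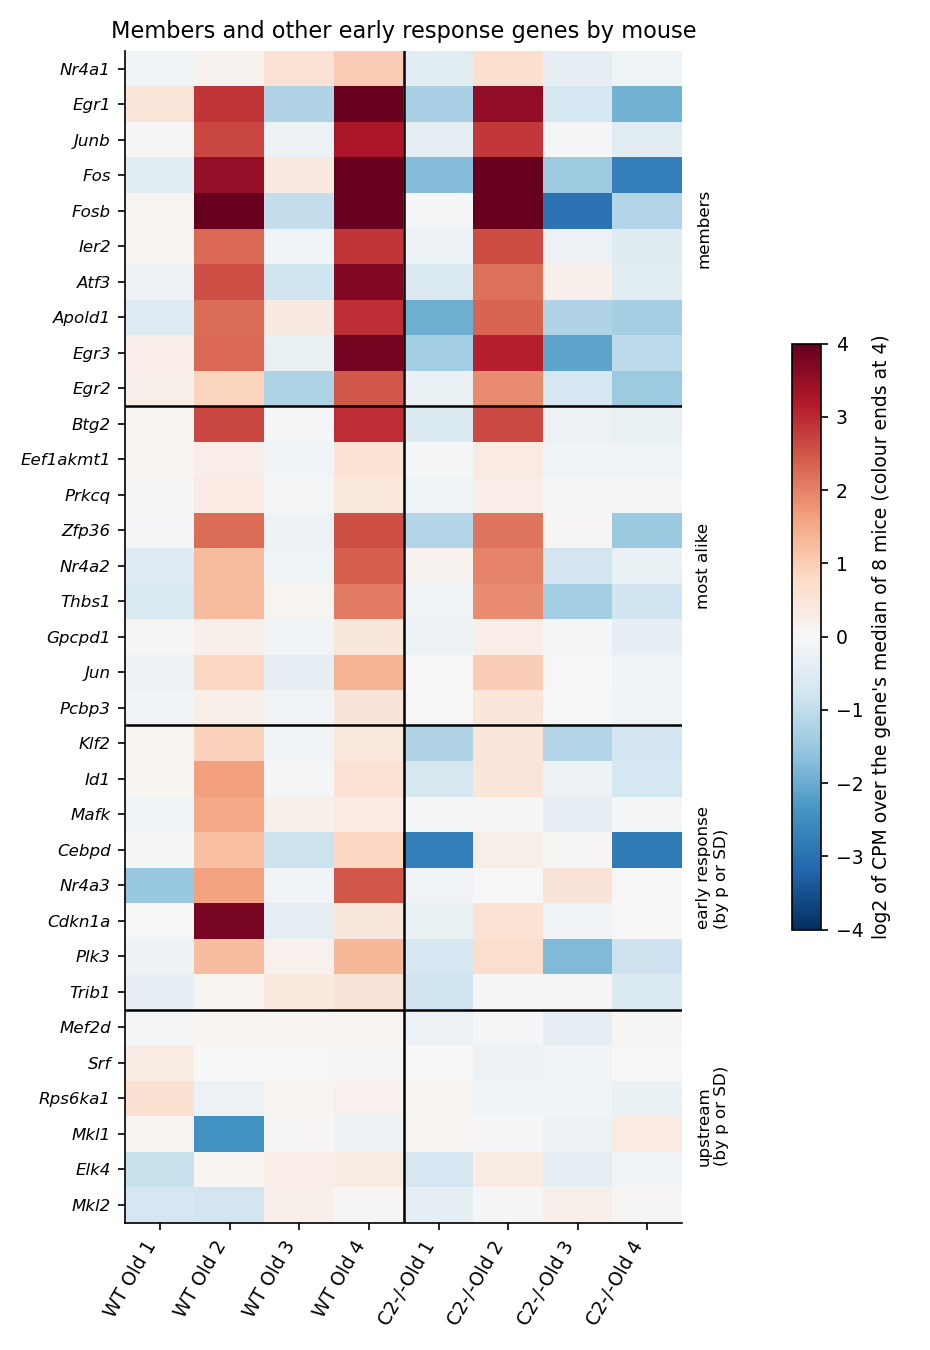
The log2 of CPM over the median of the 8 mice (colour, ends at 4 in either direction) for the 10 genes, the genes most alike to them over mice, other early response genes and upstream regulators (rows), in each mouse (columns). Of the 10 genes, all but Nr4a1 are red in WT Old replicates 2 and 4 and C2-/-Old replicate 2, Egr2 only weakly in WT Old replicate 2. Genes with a small range, such as Eef1akmt1 and Prkcq, are pale throughout. Among the other early response genes, Nr4a3, Mafk and Trib1 are not red in C2-/-Old replicate 2. Cdkn1a is red in WT Old replicate 2, and the upstream regulators are pale except Mkl1 in WT Old replicate 2.

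Fibroblast markers such as Pdgfra, Dcn and Col1a1 (6 genes) had sums that did not overlap between the genotypes, 298.4 to 436.2 CPM in WT Old and 479.5 to 658.2 CPM in C2-/-Old, and 4 of 6 had an unadjusted p under 0.05 in the higher direction and 0 an adjusted one (edgeR). Smooth muscle and pericyte markers (7 genes) summed to between 252.5 and 399.6 CPM in WT Old and between 376.8 and 450.5 CPM in C2-/-Old. WT Old replicates 2 and 4, which were high for the members, had the lowest sums of both of these lists, while C2-/-Old replicate 2 was at 513.7 and 404.1 CPM, within the range of its group. The part of cell makeup in the members' values was not tested.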

How the data were processed

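RNA of the tibialis anterior muscle of 8 mice was sequenced as polyA-selected libraries. The authors deposited expected counts and TPM per gene on GRCm38.p6. HISAT, Bowtie2 and DESeq2 are named in the submitters' processing notes, and 5.50% to 6.53% of a mouse's counts were not whole, so counts were rounded. The authors' fold changes and p-values and 8 per-mouse FPKM columns were not used. One of 16687 rows had no gene ID or counts. In 25 rows a symbol was restored from the gene ID, and 5 list genes were matched under an older symbol. Library sizes were scaled by TMM, low genes were removed with filterByExpr (12542 tested), and genotypes were compared with the edgeR 4.0.16 quasi-likelihood test with Benjamini-Hochberg adjustment over all tested genes. The model was tested on simulated counts. CPM are TMM-scaled, and log2 CPM used a prior count of 2. Alternatives were RLE factors, limma 3.58.1 voom with and without sample weights, DESeq2 1.42.0, other filters, a replicate block and leaving out each mouse. Named genes were all 10 members, per list the 3 with the smallest p and the 3 with the largest SD, the 10 most correlated with the members' mean and the 5 most correlated with Apold1, of which 1 gene is not reported here. Any other gene was named with its values known. The members and lists were chosen with earlier results of these data known. The labels do not say more than that the mice are separate samples. Intervals on counts cover counting error only. Promoter windows are from RefSeq, and no window was used for Egr1, Egr3 and Ier2.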

Additional observations from a re-analysis of the deposited data

Results flagged for a closer look

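C2-/-Old replicate 2 stood far above the other 3 C2-/-Old mice for 9 of the 10 genes, by the gap to the nearest mouse divided by the range of the group. The level there was 123.4 CPM for Fos, with a gap of 0.989 of the range. It was 61.3 CPM for Fosb (0.986), 156.2 CPM for Junb (0.965), 347.4 CPM for Egr1 (0.97), 4.24 CPM for Egr2 (0.861), 9.30 CPM for Egr3 (0.97), 13.98 CPM for Atf3 (0.88), 60.2 CPM for Ier2 (0.974) and 16.8 CPM for Apold1 (0.963). Dixon's criterion passes about 1 in 20 groups by chance, but the members were chosen because these mice were high, so the gaps are a description of the chosen genes and nothing is supported with them. Nr4a1 in C2-/-Old and all 10 genes in WT Old, where 2 of the 4 mice were high, did not meet the criterion.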

How the results depend on the processing

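Over the alternatives, 133 of 148 log2 fold changes of the 10 genes kept their direction and side of an unadjusted p of 0.05, 11 passed it and 4 reversed, and 0 members were called under any. The 4 reversals came without WT Old replicate 4, at 0.23 for Fos, 0.11 for Egr1, 0.27 for Egr2 and 0.11 for Egr3, and the lowest values when a mouse was left out, without C2-/-Old replicate 2, were -5.62, -3.97, -1.91 and -3.80. The number of members past an unadjusted p of 0.05 was 0 with all mice and 0 to 10 when a mouse was left out. It was 10 without C2-/-Old replicate 2, a mouse whose high values were part of the choice of members, so that count describes the chosen genes. Genes called over the whole table were 4, with 38 by DESeq2 and 4 to 7 when a mouse was left out (7 without WT Old replicate 2). Of 78 other early response and upstream genes, 5 passed an unadjusted p of 0.05, with 3 by limma-voom, 3 with sample weights, 8 with no filter and 14 with the replicate block. Leaving out a mouse gave 0 to 21, namely 21 without C2-/-Old replicate 2, 12 without WT Old replicate 1, 10 without WT Old replicate 3, 3 without C2-/-Old replicate 3, 2 without WT Old replicate 4, 1 without WT Old replicate 2 and 0 without C2-/-Old replicates 1 or 4. The causes were not tested. Same-numbered mice correlated at 0.267, 0.042, -0.051 and 0.021 over their deviations from the group means. Mice of different numbers and genotypes correlated at -0.225 to 0.202. So few values cannot decide whether the numbers pair the samples, and the labels name no pairing. With the replicate block 1 member, Apold1, passed an unadjusted p of 0.05 (log2 fold change -1.71, edgeR unadjusted p = 0.0327, adjusted p = 0.907). The 20 ratios of the highest to the lowest mouse, without TMM factors or without rounding, moved by less than the spread between mice. With 4 mice a group and this spread, differences of the size fitted for most members are not detectable.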
